A study of Mus musculus with 9 samples.

Results

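The 9 genes described here encode transcription factors and germ cell forms of the transcription machinery that act in the mouse oocyte: Figla, Nobox, Sohlh1, Sohlh2, Lhx8, Taf4b, Tbpl2, Pou5f1 and Sall4. They were taken by symbol from a table of 23235 genes. All 9 were found in it, and all 9 reached 1 FPKM (fragments per kilobase of transcript, relative to the mapped total) in at least 1 of its 4 columns, as did 14270 genes in all. Sohlh1 was under 1 FPKM in both columns of the wild type, and the other 8 were at 1 FPKM or more throughout.

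Oocytes of mice at day 21 were separated by micromanipulation into nucleus and cytoplasm, 10 of either were pooled for each sample, and total RNA freed of ribosomal RNA was sequenced. The groups are WT nuclei with 3 libraries, WT cytoplasms with 2, Mtr4-null nuclei with 2 and Mtr4-null cytoplasms with 2, as the labels list them. MTR4 is the RNA helicase that unwinds nuclear RNAs and hands them to the exosome, which degrades them. The sources used here do not give the strain, the exons removed in the null allele or any Cre driver. The table has 1 column per group, called here the authors' group FPKM. No value has a replicate error, no test could be run, and each difference below is one between columns, with no replicate check. In pooled material, fewer molecules per compartment and a smaller share of that compartment's RNA cannot be told apart.

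Oocyte identity is set in steps. The basic helix-loop-helix proteins SOHLH1 and SOHLH2 act in the oocytes of primordial and primary follicles, upstream of the homeodomain proteins LHX8 and NOBOX. FIGLA, another helix-loop-helix protein, pairs with E-proteins at E-boxes of the zona pellucida genes, and NOBOX acts on oocyte genes such as Gdf9 and Pou5f1. TBPL2 takes the place of the TATA-binding protein in growing oocytes, and TAF4B is a germ cell subunit of TFIID, the general factor that binds core promoters. POU5F1 (OCT4) and SALL4 belong to the germ line and to the pluripotent embryo.

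The columns were first checked against their labels. Mtr4 itself, listed as Skiv2l2, stood at 16.2 FPKM in WT nuclei, 2.91 in null nuclei, 21.6 in WT cytoplasms and 2.51 in null cytoplasms. All 10 oocyte markers were at 1 FPKM or more in every column, with summed levels from 6015 to 9790 FPKM. Of 12 markers of granulosa cells, which surround the oocyte, 6 reached 1 FPKM in the WT nucleus and 10 in each other column. Their summed levels were 75.2 FPKM in WT nuclei, 56.0 in null nuclei, 59.5 in WT cytoplasms and 46.0 in null cytoplasms. Inha, Cyp11a1 and Nr5a2 made up most of the WT nuclear sum, at 21.4, 21.3 and 17.0 FPKM, and Cyp11a1 was at 1.47 FPKM in the null nucleus. Amh and Foxl2, of the same list, reached at most 2.36 and 4.59 FPKM, Amh being listed at 0 in the WT nucleus. Among 7 markers of theca, blood and immune cells, 1 or 2 reached 1 FPKM per column, and the globin genes Hba-a1 and Hbb-b1 were at or near 0. Pecam1, a marker of blood vessels, carried most of that list, at 18.9 FPKM in WT nuclei, 12.3 in null nuclei, 20.4 in WT cytoplasms and 5.61 in null cytoplasms. A list of 6 nuclear long RNAs summed to 217 FPKM in WT nuclei, 189 in null nuclei, 13.1 in WT cytoplasms and 78.2 in null cytoplasms. By this sum the WT compartments were further apart than the null ones. Malat1 made up most of each sum, at 181, 173, 8.63 and 69.6 FPKM in that order of columns. Small RNA genes took 58.3%, 53.8%, 4.34% and 39.0% of the summed FPKM in that order of columns. FPKM is scaled to length, so this is no share of reads. Without small RNA genes the columns summed to 356074, 407182, 398670 and 263956 FPKM in the same order. The part of the long or the small RNAs in the differences below was not tested beyond the rescalings given with them.

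In WT oocytes the members spanned from 0.0589 to 204 FPKM, in an order that was the same in both compartments. Nobox was highest, with a nuclear level of 197 FPKM and a cytoplasmic level of 204. Sall4 followed at 133 and 170.0 FPKM and Pou5f1 at 131 and 170 FPKM, so close that their order cannot be told. Lhx8 stood at 68.3 and 108 FPKM, and Figla at 28.0 and 30.5. The machinery genes were lower, with Tbpl2 at 15.3 and 10.7 FPKM and Taf4b at 5.60 and 8.90. Sohlh2, at 1.31 and 3.84 FPKM, and Sohlh1, at 0.0589 and 0.358 FPKM, closed the order. FPKM is scaled to length, so these levels may be set side by side between genes. Nobox was at percentile 98.2 of the 14270 genes in the WT nucleus and Pou5f1 at 96.5, while Sohlh1 was at percentile 4.44 in the nucleus and 14.7 in the cytoplasm.

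In the null columns the order differed at both ends, by differences that have no replicate check. In the null nucleus Pou5f1 was at 116 FPKM, Nobox at 114 and Sall4 at 113, so close that their order cannot be told. In the null cytoplasm Pou5f1 came first at 101, then Nobox at 84.3 and Sall4 at 77.9. Lhx8, Figla, Tbpl2 and Taf4b kept the ranks 4 to 7 in all columns. At the low end Sohlh1 stood above Sohlh2 in both null columns.

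**Figure D1:**
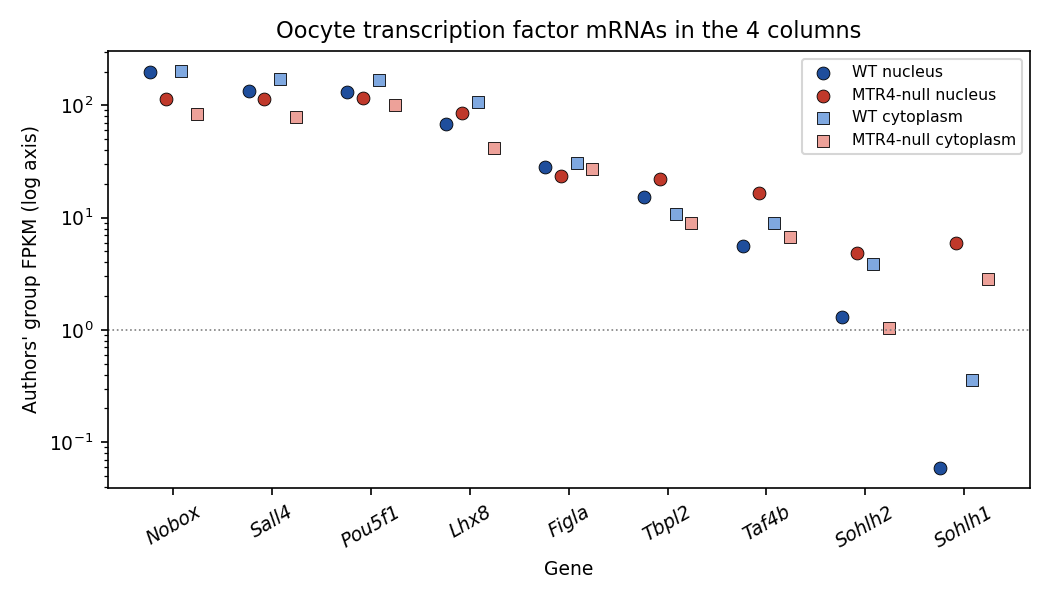
Authors' group FPKM (log axis) of the 9 genes in the 4 columns, with genes ordered by their WT nucleus value; circles are nuclei, squares are cytoplasms, and the dotted line marks 1 FPKM. There is 1 value per gene and column and no error bar. Nobox, Sall4 and Pou5f1 lie between 77.9 and 204 FPKM, and the widest spread is that of Sohlh1, from 0.0589 to 5.91 FPKM.

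Sohlh1 had the largest genotype difference of the 9. Its level was 0.0589 FPKM in WT nuclei, 5.91 in null nuclei, 0.358 in WT cytoplasms and 2.87 in null cytoplasms. Both null values lie above both WT values. On the scale of log2(FPKM + 1), where the pseudocount of 1 understates differences of low genes, the null was higher by 2.71 in the nucleus and 1.51 in the cytoplasm. Over all scalings tried, which here and below include a pseudocount of 0.1, these values ran from 2.26 to 5.24 and from 1.22 to 2.70. They were always past 2-fold (a log2 difference of 1), and both upper ends came from that pseudocount. The WT values lie where an FPKM can rest on few fragments, and the depth behind them is unknown. Sohlh1 was the only member at least 2-fold higher in both null columns, as were 9.59% of the 14270 genes, and 292 genes (2.05%) shared its course from under 1 FPKM in both WT columns to 2 FPKM or more in both null columns. Its neighbours on the chromosome in the GENCODE M21 annotation were low throughout: Lcn9 was listed at 0 in every column, and Kcnt1 was at 0.0657 to 0.819 FPKM, with its highest value in the WT nucleus.

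Sohlh2, whose protein pairs with SOHLH1, took another course. Its level was 1.31 FPKM in WT nuclei, 4.80 in null nuclei, 3.84 in WT cytoplasms and 1.04 in null cytoplasms. The log2 difference was 1.33 in the nucleus and -1.25 in the cytoplasm, so that the null was higher in 1 compartment and lower in the other. Of all genes, 71 (0.498%) were likewise at least 2-fold higher in the null nucleus and at least 2-fold lower in the null cytoplasm. In the cytoplasm its value ran from -1.79 to -0.52 over the scalings and so did not always pass 2-fold. Dclk1, the next coding gene on the same strand and named here after its values were seen, was at 24.9 FPKM in WT nuclei, 0.164 in null nuclei, 12.02 in WT cytoplasms and 0.116 in null cytoplasms.

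E-boxes, the CANNTG element that helix-loop-helix proteins bind, were looked for in RefSeq promoter windows of the 250 bases before the annotated start, which were on hand for 7 of the 9 genes (8 windows, since Pou5f1 has 2). The windows are on build GRCm38.p6, while the submitters' notes name mm9 for the expression values. Sohlh1 and Nobox had the highest and the lowest nuclear genotype difference, and Figla the narrowest range over the columns as deposited. These genes also encode, or are known to be controlled by, helix-loop-helix proteins. For these reasons the windows of Sohlh1, Nobox and Figla are shown. Each is printed 5′ to 3′ on the gene's strand, Sohlh1 at chr2:25847249-25847498 (minus strand), Nobox at chr6:43309555-43309804 (minus strand) and Figla at chr6:86016941-86017190 (plus strand), with every CANNTG in capitals.
Sohlh1: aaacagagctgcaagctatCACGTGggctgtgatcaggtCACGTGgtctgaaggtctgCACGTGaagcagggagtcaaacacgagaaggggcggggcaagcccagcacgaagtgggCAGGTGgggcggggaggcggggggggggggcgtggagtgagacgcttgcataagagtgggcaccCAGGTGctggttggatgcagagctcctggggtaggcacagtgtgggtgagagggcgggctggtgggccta
Nobox: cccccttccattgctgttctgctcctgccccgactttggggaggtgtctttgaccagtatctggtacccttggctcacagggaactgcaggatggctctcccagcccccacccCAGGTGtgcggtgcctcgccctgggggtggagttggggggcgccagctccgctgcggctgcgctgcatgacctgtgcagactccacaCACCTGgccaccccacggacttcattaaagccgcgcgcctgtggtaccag
Figla: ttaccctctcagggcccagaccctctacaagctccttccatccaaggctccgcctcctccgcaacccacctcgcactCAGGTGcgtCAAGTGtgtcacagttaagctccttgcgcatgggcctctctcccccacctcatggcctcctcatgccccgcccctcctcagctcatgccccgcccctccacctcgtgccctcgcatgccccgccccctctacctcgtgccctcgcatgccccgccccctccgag

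The Sohlh1 window holds 5 E-boxes, 3 of them with the letters CACGTG, and those of Nobox and Figla hold 2 each. CANNTG, which reads alike on both strands and includes CACGTG, occurs in 6 of the 7 genes with a window, all but Lhx8, and in 66.2% of the 32851 windows of all genes. CACGTG occurs in the window of Sohlh1 alone among the members and in 6.02% of all windows. The letters TAATTG (bound by NOBOX), TGATTG (bound by LHX8), ATGCAAAT (the octamer bound by POU5F1) and TATAAA were searched on both strands too. None of these 4 was in a member's window, against 7.17%, 12.7%, 1.60% and 12.4% of all windows. These are matches of letters in a short window and no evidence of binding or of its absence.

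Nobox was the member with the lowest null nucleus relative to WT. Its values were 197 FPKM in WT nuclei, 114 in null nuclei, 204 in WT cytoplasms and 84.3 in null cytoplasms, both null values lying below both WT values. The null was at 57.7% of WT in the nucleus and 41.4% in the cytoplasm, or -0.79 and -1.26 on the log2 scale. The nuclear difference stayed between -0.996 and -0.79 over the scalings, and the cytoplasmic one between -1.27 and -0.54. Ratios of FPKM within a column do not move when the whole column is multiplied by a common factor, though quantile normalization changes them. Nobox was at 7.04 times Figla in the WT nucleus and 4.85 times in the null nucleus, and at 6.69 times in the WT cytoplasm and 3.08 times in the null cytoplasm. Against Pou5f1 the same ratio was 1.501, 0.978, 1.20 and 0.835 in the order WT nucleus, null nucleus, WT cytoplasm, null cytoplasm. Nobox was thus lower relative to both genes in the null column of each compartment. Against Gdf9, a growth factor gene that NOBOX is known to act on, it was 0.109, 0.0532, 0.0761 and 0.0647.

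As deposited, Figla differed least between the columns, a rank that was not taken under the other scalings. Its level was 28.0 FPKM in WT nuclei, 23.4 in null nuclei, 30.5 in WT cytoplasms and 27.4 in null cytoplasms, the highest value being 1.30 times the lowest. The log2 difference was -0.25 in the nucleus and -0.15 in the cytoplasm, the latter turning positive, up to 0.57, when the columns were rescaled. Relative to Pou5f1 it was 0.213 in WT nuclei, 0.202 in null nuclei, 0.180 in WT cytoplasms and 0.271 in null cytoplasms. Lhx8, the LIM homeodomain factor, was at 68.3 FPKM in WT nuclei, 86.0 in null nuclei, 108 in WT cytoplasms and 41.6 in null cytoplasms, so that the cytoplasmic columns were the extremes. Its cytoplasmic log2 difference was -1.35, and ran from -1.37 to -0.63 over the scalings. The null was at 38.7% of WT there, against 27.0% for Sohlh2. Its nuclear log2 difference was 0.33. Lhx8 was at 0.347 times Nobox in the WT nucleus and 0.757 times in the null nucleus, but at 0.528 and 0.494 times in the cytoplasms.

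Pou5f1 and Sall4 went side by side in 3 of the 4 columns. Pou5f1 was at 131 FPKM in WT nuclei, 116 in null nuclei, 170 in WT cytoplasms and 101 in null cytoplasms. Sall4 was at 133, 113, 170.0 and 77.9 FPKM in the same order. Their ratio, Sall4 to Pou5f1, was 1.02, 0.972 and 1.003 in the first 3 columns and 0.772 in the null cytoplasm. The log2 differences were -0.17 for Pou5f1 and -0.24 for Sall4 in the nucleus, and -0.74 and -1.12 in the cytoplasm. With centring on genes whose FPKM was at least 20 in all columns, the cytoplasmic values were -0.02 and -0.39. The Pou5f1 value is uncertain in another way: the mouse genome holds retrotransposed copies of this gene, and the sources used here do not say how the authors' counting treated them. An antisense gene overlaps Pou5f1 (Gm19553), and a noncoding transcript on the other strand overlaps Sall4 (Gm14261). Whether counting used strand is not given either.

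Of the machinery genes, Taf4b was at least 2-fold higher in the null nucleus and Tbpl2 was not. Taf4b was at 5.60 FPKM in WT nuclei, 16.4 in null nuclei, 8.90 in WT cytoplasms and 6.76 in null cytoplasms, so that the null nucleus stood apart above the others. Its log2 difference was 1.40 in the nucleus, at 1.05 to 1.54 over the scalings, and -0.35 in the cytoplasm, where rescaling turned it as far as 0.37. A processed pseudogene (AC133172.1) overlaps Taf4b on the same strand, and its part in these values was not tested. Tbpl2 was at 15.3 FPKM in WT nuclei, 22.1 in null nuclei, 10.7 in WT cytoplasms and 8.99 in null cytoplasms, and was the only member higher in the nucleus than in the cytoplasm of WT. Its log2 difference was 0.51 in the nucleus, at 0.17 to 0.53 over the scalings, where the median of all genes was 0.21 as deposited. In the cytoplasm it was -0.23, reaching 0.50 when rescaled.

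Each of these has a general counterpart, whose RNA was the more abundant in every column. Protein levels were not measured here. Tbp was at 45.6, 49.1, 46.9 and 36.6 FPKM in the order WT nucleus, null nucleus, WT cytoplasm, null cytoplasm, and Tbpl2 at 0.335, 0.451, 0.228 and 0.246 times those. Taf4a, the general TAF4 gene, was at 52.5, 64.1, 53.2 and 52.9 FPKM, and Taf4b at 0.107, 0.256, 0.167 and 0.128 times those. The TFIIA subunit forms were closer. Gtf2a1l, the germ cell form of TFIIA alpha-beta, was at 31.5, 60.1, 51.9 and 39.7 FPKM, or 0.507, 1.20, 0.805 and 1.05 times Gtf2a1. All 3 germ cell forms thus had a higher ratio to their counterpart in the null nucleus than in the WT nucleus. In the cytoplasm the ratio was higher in null for Gtf2a1l and Tbpl2 and lower for Taf4b.

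**Figure D2:**
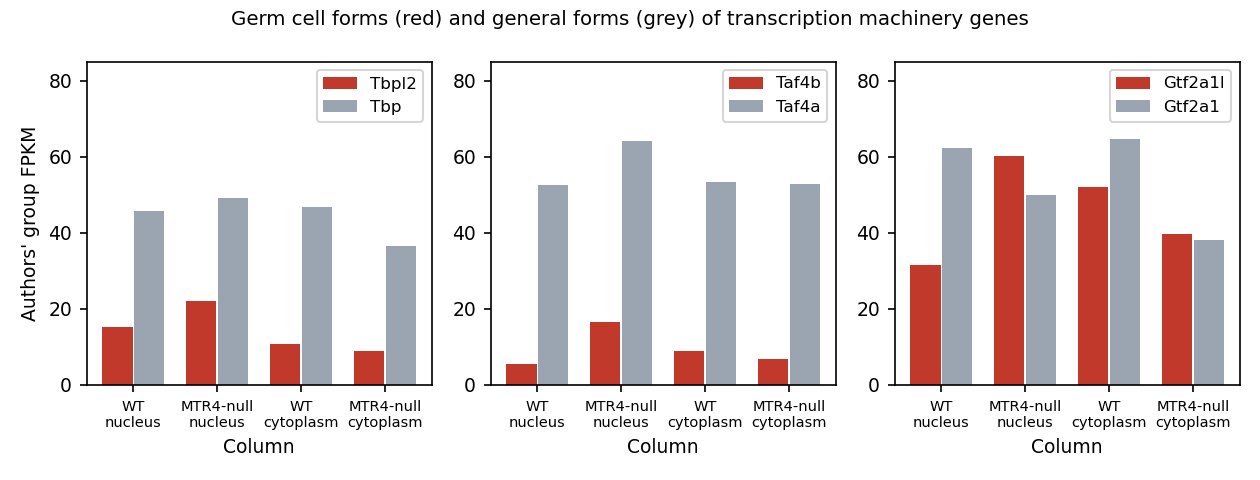
Authors' group FPKM (linear axis from 0) of 3 germ cell forms in red beside their general counterparts in grey, in each of the 4 columns; bars are single values without error. Taf4b stays below Taf4a and Tbpl2 below Tbp in every column, while Gtf2a1l exceeds Gtf2a1 in both null columns.

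Counted over the group, 3 of 9 members (Sohlh1, Sohlh2 and Taf4b) were at least 2-fold higher in the null nucleus and 0 at least 2-fold lower. Among all genes 23.9% were higher and 12.3% lower by that much. The 3 are also the least abundant members in WT. The members' median log2 difference was 0.33, that of all genes 0.21. In the cytoplasm 1 of 9 (Sohlh1) was at least 2-fold higher and 4 of 9 (Nobox, Sohlh2, Lhx8 and Sall4) at least 2-fold lower, against 15% and 21.4% of all genes. Among the 2606 genes whose FPKM was at least 20 in all columns, where Nobox, Figla, Lhx8, Pou5f1 and Sall4 belong, 30.7% were at least 2-fold lower in the null cytoplasm and 8.29% at least 2-fold higher in the null nucleus. The median of those genes was -0.72 in the cytoplasm. Of the members that belong there, Figla was at -0.15, Pou5f1 at -0.74, Sall4 at -1.12, Nobox at -1.26 and Lhx8 at -1.35. The median of all 9 members, which takes in the less abundant ones, was -0.74. The cytoplasmic count depended on scaling: 4 lower became 2 with centring on all genes, 1 with quantile normalization and 0 when columns were rescaled without small RNA genes, while Sohlh1 remained higher under each. Differences between the genotypes followed base composition over all genes as well. Between the lowest and the highest of 5 equal groups by transcript GC content, the nuclear median went up from -0.08 to 0.60, and the cytoplasmic one from -0.50 to -0.0015. Sohlh1, at 58.1% GC, and Pou5f1, at 57.6%, lie in the highest group and Tbpl2, at 43.1%, in the lowest, and the part of GC content in their differences was not tested.

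**Figure D3:**
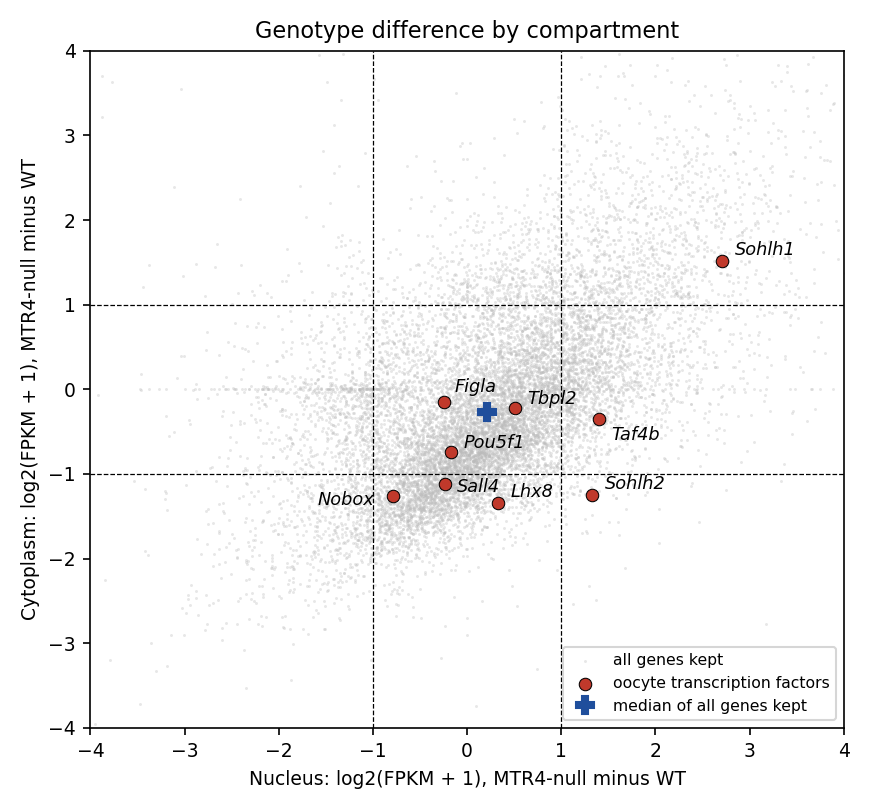
Genotype difference on the log2(FPKM + 1) scale (MTR4-null minus WT) in the nucleus (horizontal) and the cytoplasm (vertical), for the 9 genes in red over 14270 genes in grey, with the median of all genes as a blue cross and dashed lines at 2-fold. The axes end at 4, leaving 271 genes outside. Sohlh1 is the member in the upper right field, Sohlh2 in the lower right, and Nobox, Sall4 and Lhx8 lie below the lower line.

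**Figure D4:**
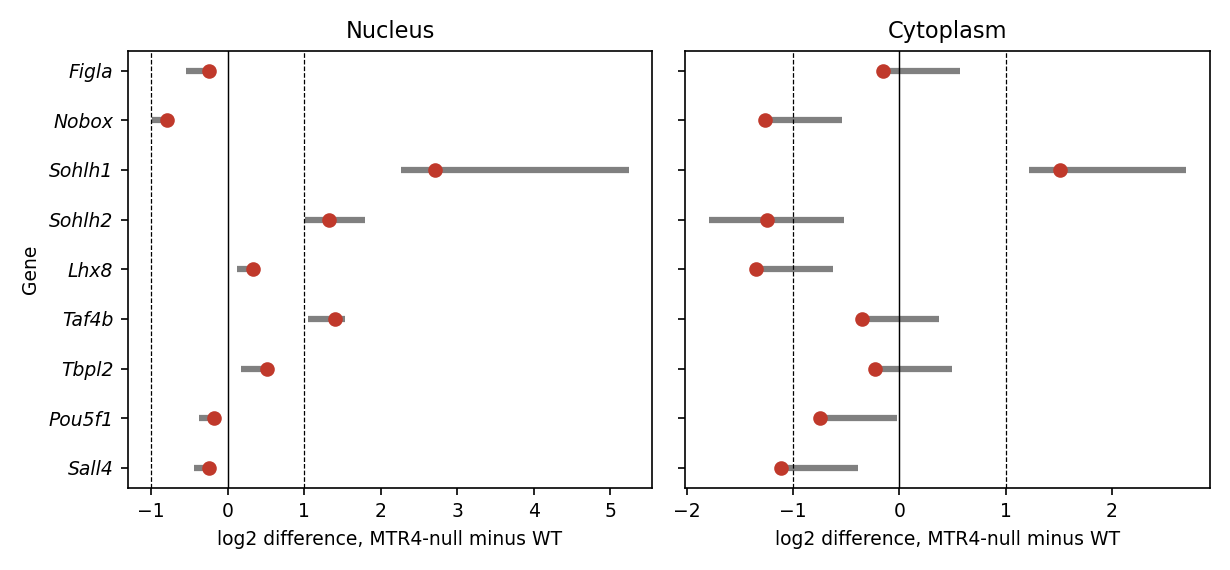
Genotype difference of each gene in the nucleus (left) and the cytoplasm (right): red points are values as deposited, and grey bars span all pseudocount and scaling settings tried (they are not errors). All 9 genes keep the sign of the nuclear difference, while Figla, Taf4b and Tbpl2 cross 0 in the cytoplasm.

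Nucleus and cytoplasm were then compared within each genotype. In WT, 8 of 9 members were lower in the nucleus, as were 53.1% of all genes, while 1, Sohlh2, was at least 2-fold lower (log2 -1.07) and 0 were at least 2-fold higher. Sohlh2 was at -0.94 when rescaled without small RNA genes and -0.84 with centring on abundant genes, and Sohlh1 was at -1.53 with a pseudocount of 0.1. Of all genes 4.71% were at least 2-fold lower and 12.4% higher there. Most of these differences were small, with Nobox at -0.05, Figla at -0.12, Sall4 at -0.35 and Pou5f1 at -0.37. Those of Figla and Nobox turned positive, to at most 0.11 and 0.18, under some scalings. Tbpl2 was at 0.48.

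In MTR4-null oocytes 8 of 9 members were higher in the nucleus than in the cytoplasm, as were 82.2% of all genes. At least 2-fold higher were 4 of 9, namely Sohlh2 at 1.51, Tbpl2 at 1.21, Taf4b at 1.17 and Lhx8 at 1.03, and 0 were lower, against 17% and 1.84% of all genes. After centring on all genes 0 of 9 were at least 2-fold higher, since the median of all genes was itself at 0.52. Nobox (0.42), Pou5f1 (0.20) and Sall4 (0.53) fell below 0 under some scalings. Figla, at -0.22, was the exception as deposited. It stayed below 0 under every scaling tried and reached -0.93 at the lowest.

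The shift of the compartment ratio, null minus WT, ranged from -0.10 for Figla to 2.57 for Sohlh2. It was 1.75 for Taf4b, 1.68 for Lhx8 and 1.20 for Sohlh1, and these with Sohlh2 make 4 of 9 at least 2-fold higher and 0 lower, against 27% and 10.7% of all genes. The 4 became 3 with centring on all genes and with quantile normalization, and 2 when columns were rescaled without small RNA genes. With centring on abundant genes 1 remained, Sohlh2. Under that setting Taf4b was at 0.93, Lhx8 at 0.85, Sohlh1 at 0.37 and the median of the members at 0.054. The median over all 9 members, abundant or not, was 0.88. It was 0.57 over all genes and 0.82 over those with at least 20 FPKM in all columns. Figla was the only member with a shift below 0 as deposited, whereas 71.5% of all genes were above 0. Over the scalings the shift of Figla reached -0.92. Those of Nobox, Pou5f1 and Tbpl2 fell below 0 under some, to -0.35, -0.26 and -0.09. The ratio of the nuclear long RNAs shifted in the other direction from the members' median. Their median was -1.71, with 4 of 6 at least 2-fold lower and 0 higher. The part of these RNAs was not tested.

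**Figure D5:**
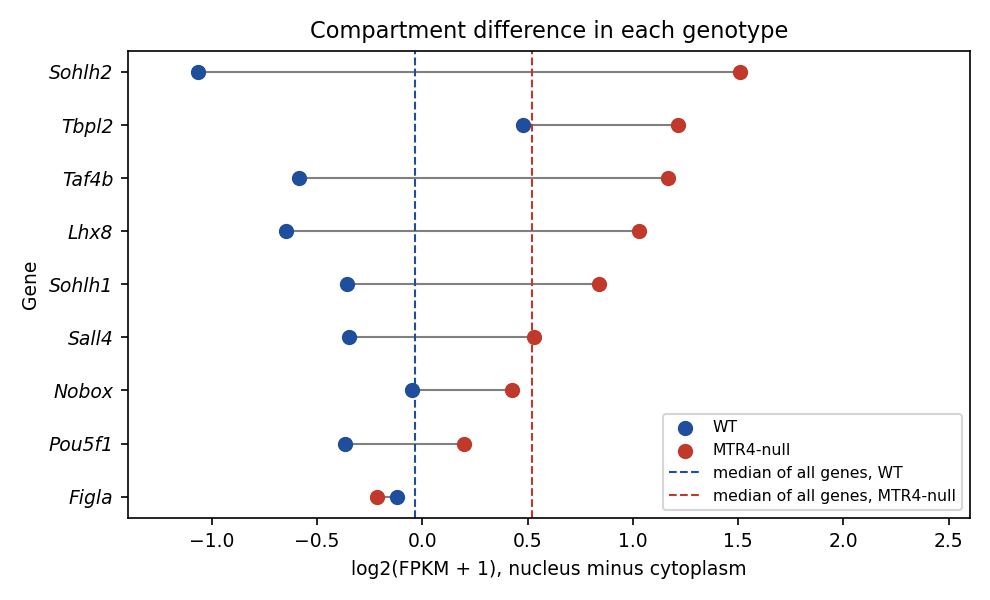
Difference between nucleus and cytoplasm on the log2(FPKM + 1) scale for each gene in WT (blue) and MTR4-null (red), joined by a grey line, with dashed lines at the medians of all genes (-0.04 in WT and 0.52 in MTR4-null). Sohlh2 has the longest line, from -1.07 to 1.51, and Figla the shortest.

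The genes that these factors are known to act on, or that depend on them, were taken as a list of 18. All were at 1 FPKM or more in every column. In the null nucleus 2 of 18 were at least 2-fold higher and 0 lower, against 23.9% and 12.3% of all genes. The median of the list was 0.22. Among genes with at least 20 FPKM in all columns, where all of the list but Oog1 belong, 8.29% were higher and 3.18% lower. From the WT to the null nucleus, the 2 higher were Padi6 at 1203 and 2517 FPKM and Nlrp5 at 314 and 690.0 FPKM. Under some scalings the 2 became 0. In the null cytoplasm 0 of 18 were higher and 6 lower, against 15% and 21.4% of all genes, and 30.7% lower among those with at least 20 FPKM in all columns. The median of -0.70 ran up to 0.02 over the scalings, and the 6 became 0 under some. The nuclear median stayed above 0, at 0.01 or more. Between the WT and null cytoplasm, Npm2, whose product remodels sperm chromatin after fertilization, was at 943 and 306 FPKM and Oas1d at 631 and 195. Of the zona pellucida genes, on which FIGLA acts, Zp2 was at 1015 and 1020 FPKM there, Zp3 at 1471 and 1540, and Zp1 at 554 and 380. Gdf9 was at 2677 and 1304 FPKM and Mos at 296 and 211.

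Of 20 other genes of the TBP family, TFIID and TFIIA, 19 were kept. In the null nucleus 4 of 19 were at least 2-fold higher and 2 lower, near the 23.9% and 12.3% of all genes. The median was 0.28 and -0.10 at the lowest scaling, with 2 to 5 higher and 2 to 4 lower over the scalings. In the null cytoplasm 1 was higher and 4 lower, against 15% and 21.4% of all genes. The median was -0.55 and 0.17 at the highest scaling, with 1 to 2 higher and 2 to 5 lower. Taf11 was at 23.1 FPKM in WT nuclei, 68.6 in null nuclei, 17.0 in WT cytoplasms and 36.3 in null cytoplasms, higher in both null columns. Taf9b was at 53.7, 21.8, 57.3 and 8.89 FPKM in that order, lower in both. The cytoplasmic level of Taf3 was 69.5 FPKM for WT and 17.6 for null. Taf7l, known from testis, was listed at 0 or near it.

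The E-proteins that pair with FIGLA and the Id proteins that block such pairing gave 2 of 7 at least 2-fold higher in the null nucleus and 1 of 7 in the null cytoplasm, with 0 lower. Of all genes 23.9% and 15% were higher by that much, and 12.3% and 21.4% lower. Their medians were 0.73 in the nucleus and 0.22 in the cytoplasm, the latter reaching -0.08 at the lowest scaling. Tcf3 was at 21.5 FPKM in WT nuclei, 36.2 in null nuclei, 24.4 in WT cytoplasms and 28.5 in null cytoplasms. Id3, an inhibitor, was at 10.3, 30.8, 4.08 and 23.5 FPKM, both null values lying above both WT values. Id4 was at 0.0905, 5.20, 0.340 and 0.602 FPKM.

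Partners of POU5F1 and SALL4 in the pluripotent embryo were low for the most part. Of 18 listed, 11 were kept, and Sox2 stayed under 1 FPKM in every column. Nanog was at 1.999, 3.79, 0.0264 and 3.09 FPKM in the order WT nucleus, null nucleus, WT cytoplasm, null cytoplasm. The list also held abundant genes, the highest being Dppa3, given below. Dppa5a was at 291, 285.5, 255 and 180 FPKM and Lin28a at 50.8, 50.7, 56.9 and 35.5 in the same order. Among the Sall genes, Sall1 and Sall3 were at or near 0, and Sall2 was at 6.17, 17.8, 5.21 and 12.6 FPKM. In the nucleus 3 of the 11 were at least 2-fold higher in null and 0 lower, against 23.9% and 12.3% of all genes. In the cytoplasm 3 were higher and 1 lower, against 15% and 21.4%. The medians of 0.57 and 0.11 stayed above 0 under every scaling tried, while the nuclear higher count ran from 2 to 5, the cytoplasmic one from 3 to 5, and the 1 lower became 0 under some. The 1 lower was Dppa3, a maternal factor, with cytoplasmic levels of 711 FPKM for WT and 288 for null.

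Other transcription regulators of the oocyte gave 12 kept of 13. The null nucleus had 1 at least 2-fold higher and 1 lower (median -0.20), and the null cytoplasm 1 higher and 5 lower (median -0.89). The shares of all genes were 23.9% and 12.3% in the nucleus and 15% and 21.4% in the cytoplasm. Both medians stayed below 0 under every scaling tried, at up to -0.16 in the cytoplasm, where the lower count fell to 1. The homeobox gene Sebox was lower in both, at 58.7 FPKM in WT nuclei, 19.9 in null nuclei, 75.0 in WT cytoplasms and 12.4 in null cytoplasms. Yy1 was higher in both, at 7.13, 27.1, 8.22 and 20.6 FPKM. Foxo3, which holds primordial follicles at rest, was at 177, 122, 220 and 97.4 FPKM, a course like that of Nobox.

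Genes most like each member were sought by the Euclidean distance over the 4 columns on the log2(FPKM + 1) scale, among the named genes kept. The closest pair was Tbpl2 and Tmem85 at a distance of 0.085. Sall4 was nearest to Nup98 (0.11) and Stau1 (0.14), and Lhx8 to Ccdc101 (0.13) and Dedd (0.23). Nobox was nearest to Prc1 (0.17) and Fxr1 (0.22), and Pou5f1 to Phf13 (0.16) and Cnot3 (0.22). Figla was nearest to Pnkd, Sohlh2 to Akr1e1 (0.22 each) and Taf4b to Rabggtb (0.21). Sohlh1 had the most distant first neighbour of the 9, Neu1 at 0.32. No member was among the 2 nearest genes of another member. With 4 values per gene, such likeness is a description of level and course.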

How the data were processed

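The authors deposited 1 table of FPKM with 4 columns, 1 for each genotype and compartment. The submitters' processing notes name Cufflinks 2.2.1, TopHat2 2.1.1 and the build mm9, without settings. Per the labels' protocols, ribosomal RNA was depleted, fragments of 300 to 400 bp were selected and paired ends of 150 bp were read. How libraries were averaged and the depth per library are not given in the sources used here. A last row without a gene name equals the column sums (50% of all values) and was left out. Genes at 1 FPKM or more in at least 1 column were kept. Differences were taken on log2(FPKM + 1), and genes at least 2-fold apart on that scale were counted (Python 3.11.15, pandas 2.3.3, numpy 2.4.6). The counting was checked on simulated data. With 1 column per group, limma could not be run. Alternatives were a pseudocount of 0.1, 4 rescalings, a 1.5-fold threshold and other filters. Genes named are the members, list members of the highest level or largest difference or that describe a list, and the 2 nearest genes per member; others are marked. Members and lists were chosen with earlier results of these data known. GC content is that of the longest coding transcript in GENCODE M21 (11876 of 14270 genes, all 9 members), and promoter windows are from RefSeq, GRCm38.p6.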

Additional observations from a re-analysis of the deposited data

Results flagged for a closer look

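For 4 members the null column was higher than WT in the nucleus and lower in the cytoplasm. The difference of the log2 differences (nucleus minus cytoplasm) was 2.57 for Sohlh2, 1.75 for Taf4b, 1.68 for Lhx8 and 0.73 for Tbpl2. This opposition was not tested, since each group is a single column. Of all genes 26.6% showed the same pair of signs. For Taf4b and Tbpl2 the cytoplasmic sign turned under rescaling.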

How the results depend on the processing

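No paired analysis was possible because the deposited columns carry no replicate numbers, and no library could be left out. In all, 187 of 225 single-gene values kept their side of 2-fold under the alternatives, 38 did not, and 0 that were past 2-fold changed sign. The settings below are, in this order, centring on all genes, rescaling without small RNA genes, quantile normalization and, chosen after seeing the data, centring on genes whose FPKM was at least 20 in all columns. The members' median moved in the nucleus (genotype) to 0.12, 0.14 and 0.17 under the first 3, and in the cytoplasm to -0.48, -0.15, -0.25 and -0.018. In WT (compartment) it moved to -0.21 with rescaling and -0.13 with the last, in MTR4-null to 0.31, 0.34, 0.32 and 0.24, and for the change of ratio to 0.30, 0.10, 0.24 and 0.054. Members at least 2-fold lower in the null cytoplasm became 2, 0, 1 and 0. Those at least 2-fold lower in the WT nucleus than in the cytoplasm became 0 with rescaling and with the last, 2 with a pseudocount of 0.1 and 3 at 1.5-fold. Those higher in the nucleus of MTR4-null became 0, 1, 1 and 0, and those with a higher ratio 3, 2, 3 and 1. At 1.5-fold 1 member was lower in the null nucleus. The centring medians were 0.21, -0.26, -0.04, 0.52 and 0.57 over all genes, in the order of the comparisons.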
